A study of Mus musculus with 10 samples.

Results

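The genes described here encode 10 neuropeptide precursors of the mouse cortex: Sst, Cort, Vip, Adcyap1, Npy, Cck, Tac1, Penk, Pdyn and Crh. They were chosen by name, and all 10 were found among the 53700 gene identifiers counted in the study. RNA of cortical tissue from female mice aged 4 months was measured by 3′ RNA-seq in 10 libraries, 5 labelled 5XFAD and 5 labelled 5XFAD;Neu cKO. The library titles name 5XFAD and Idol in both groups, followed by Camk2a-cre WT for the first group and Camk2a-cre cKO for the second. The group labels used here are the paper's names. Both groups carried the 5XFAD transgenes, which lead to amyloid plaques in the brain. Per the study's methods, the second group came from crosses with mice carrying a floxed Idol gene (symbol Mylip, an E3 ubiquitin ligase that targets lipoprotein receptors) and with Camk2a-Cre mice, and the controls were 5XFAD littermates. The Camk2a promoter drives Cre mainly in excitatory forebrain neurons, so the inhibitory neurons that make several of these peptides are not its usual target. No group without 5XFAD was measured. The control titles also name Idol, but they do not say whether control mice carried the floxed allele. The comparison asks whether the peptide genes differ between the groups.

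Neuropeptides are made as long precursors, cut by convertases inside the secretory pathway, stored in dense-core vesicles and released to act on G protein-coupled receptors. In the cortex, Sst and Vip each define a large class of inhibitory interneurons, Npy marks several interneuron types, and Cck is made both by a class of interneurons and by many excitatory neurons. Penk, Tac1 and Pdyn are abundant in the projection neurons of the striatum, which lies beneath the cortex, and are also made by groups of cortical cells. Crh and Adcyap1 are transcribed in response to activity and stress, and several of these genes are known targets of the transcription factor CREB, which binds the cAMP response element (CRE).

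Because several of the genes are textbook CREB targets, their start regions are shown before their levels. Promoter windows came from RefSeq on build GRCm38.p6, which differs from the GRCm39 build of the counts. An entry was found for 8 of the 10 genes, and none for Penk and Crh. The searched windows ran from 250 bases before to 50 after the annotated start. Each stretch is 120 bases long, 100 before and 20 after the annotated start, read 5′ to 3′ along the gene's strand, and capitals mark the full CRE TGACGTCA or its core TGACG on either strand (CGTCA when read on the opposite strand).
Sst (chr16:23890825-23890944, minus strand): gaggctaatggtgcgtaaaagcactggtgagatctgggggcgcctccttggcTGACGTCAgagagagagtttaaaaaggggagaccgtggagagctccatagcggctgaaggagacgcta
Vip (chr10:5639118-5639237, plus strand): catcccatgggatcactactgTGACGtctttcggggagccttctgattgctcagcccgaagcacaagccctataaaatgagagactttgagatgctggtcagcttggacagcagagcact
Cck (chr9:121495675-121495794, minus strand): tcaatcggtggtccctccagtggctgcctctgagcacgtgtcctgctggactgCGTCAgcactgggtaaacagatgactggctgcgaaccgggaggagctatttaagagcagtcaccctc
Adcyap1, first of 2 windows (chr17:93198917-93199036, plus strand): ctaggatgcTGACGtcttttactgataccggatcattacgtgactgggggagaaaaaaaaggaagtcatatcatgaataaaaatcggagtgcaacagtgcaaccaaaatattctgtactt
Npy (chr6:49822610-49822729, plus strand): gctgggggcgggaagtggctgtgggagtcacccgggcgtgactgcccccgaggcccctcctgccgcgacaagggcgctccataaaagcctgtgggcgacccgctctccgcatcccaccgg

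Among the 8 genes with an entry, Sst alone held the full CRE in the searched window, at position -48 from its start, and the full CRE contains the core on both strands. Of all 32851 promoter windows of the table, 1.79% held the full CRE and 20.8% the core. These 8 genes had 10 windows, of which 7 held the core, and the 2 windows of Adcyap1 overlap. The core was found in 6 of the 8 genes: Sst, Vip at -79, Cck at -47, Tac1 at -197 and -43, Cort at -18, and Adcyap1 at -91. Npy and Pdyn had no match in their windows. A match is a description of letters and not a measured binding site.

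The libraries held 4320504 to 7466192 counted reads in the group labelled 5XFAD and 5148499 to 7246659 in the group labelled 5XFAD;Neu cKO. The targeted gene did not show a loss of reads where the label says cKO: in those libraries Mylip measured 14.8 ± 4.9 CPM (reads scaled to a common library size with TMM factors; SD, n = 5) and in the libraries labelled 5XFAD 11.2 ± 2.27, with overlapping groups (p = 0.254, exact two-sided permutation test). Counts summed over the gene from 3′ reads cannot show whether the floxed part was removed, and only some cells of the tissue carry Cre activity, so the labels could not be checked by this gene. Markers of excitatory neurons summed to 4439 to 5364 CPM in one group and 4328 to 4910 in the other, and those of inhibitory neurons to 501 to 671 and 589 to 708. Markers of striatal projection neurons were also present in every library, at 768 to 1052 and 735 to 1135 CPM summed over 10 genes. Of 10 microglia markers, which summed to 461 to 675 CPM in one group and 314 to 395 in the other, 6 were called lower in the 5XFAD;Neu cKO group by edgeR (Ctss, C1qb, Tyrobp, C1qc, Csf1r and Cx3cr1) and 5 by DESeq2, which gave C1qb no adjusted p, against 0.218% of all genes called by edgeR in either direction. Ctss, C1qb and Tyrobp stayed called in every fit leaving out 1 library, while Csf1r was not called without 5XFAD replicate 2 (edgeR adjusted p = 0.0808), C1qc not without 5XFAD replicate 4 or 5XFAD;Neu cKO replicate 5 (0.0636 and 0.0984), and Cx3cr1 not without 5XFAD replicate 2 or 5XFAD;Neu cKO replicates 3, 4 or 5 (0.0694 to 0.231). The astrocyte filament gene Gfap was called lower too (log2 fold change -0.88; edgeR adjusted p = 0.00202), also in every fit leaving out 1 library.

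The level of the 10 genes spanned a 177-fold range. One 3′ read region is sampled per transcript in this assay, so CPM were compared between genes without dividing by length. Cck, whose peptide cholecystokinin acts on the CCKB receptor in cortex, was the most abundant at a mean of 607 CPM over the 10 libraries, and it made up 46.9% of the summed level of the 10 genes. Its mean placed it in the top 0.477% of all genes tested. Penk, the enkephalin precursor, followed at 308 CPM and lay below Cck in all 10 libraries. Tac1 (precursor of substance P and neurokinin A) and Sst (somatostatin) had means of 101 and 100 CPM, and Tac1 was above Sst in 6 of 10 libraries, so their order was not resolved. Npy (neuropeptide Y) averaged 79.8 CPM, below Sst in 9 of 10 libraries. Pdyn (the dynorphin precursor) at 32.7 CPM was above Vip (vasoactive intestinal peptide) at 29.3 CPM in 7 of 10 libraries. Crh (corticotropin-releasing hormone) at 17.5 CPM was likewise above Adcyap1 (the precursor of PACAP) at 15.6 CPM in 7 of 10, so neither order held beyond the spread between libraries. Cort (cortistatin, a relative of somatostatin) was the least abundant at 3.43 CPM, with 8 to 46 counted reads per library. The spread between libraries, as the coefficient of variation over all 10, ran from 9.73% for Penk to 28.1% for Adcyap1 and 56% for Cort.

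**Figure D1:**
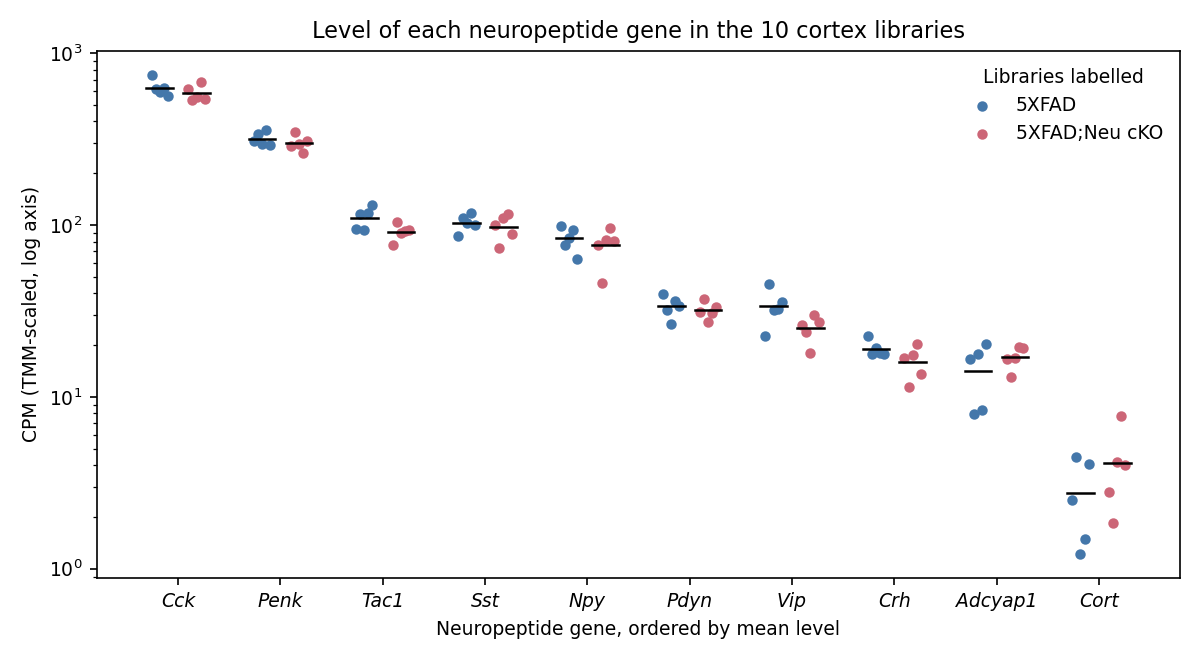
CPM of each neuropeptide gene (log axis) in the 5 libraries labelled 5XFAD (blue) and the 5 labelled 5XFAD;Neu cKO (red), 1 point per library, with bars at the group means. Cck and Penk stand above the others, Cort lies lowest, and the points of the groups overlap for all 10 genes.

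No gene of the 10 was called different between the groups (quasi-likelihood test of edgeR, Benjamini-Hochberg adjustment over 19268 genes, threshold 0.05). All 10 passed the filter on low counts. Over all genes tested, 42 genes or 0.218% were called, 31 lower and 11 higher in the 5XFAD;Neu cKO group. At an unadjusted p under 0.05, 2 of the 10 genes passed, Vip and Tac1, against 7.95% of all genes, and DESeq2 gave the same numbers, 0 adjusted and 2 unadjusted, with no adjusted p for Cort, Adcyap1 and Crh. The CPM of the groups overlapped for all 10 genes, while 1.3% of all genes had groups that did not overlap. The log2 fold change (5XFAD;Neu cKO against 5XFAD) was below 0 for 8 of the 10, against 50.1% of all genes, with a median of -0.09 beside -0.00 over all genes. Adjusted p-values below are from the same edgeR fit. The study's description of its bulk RNA-seq counts mice, the labels give replicate numbers, and p-values measure the spread between these libraries.

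**Figure D2:**
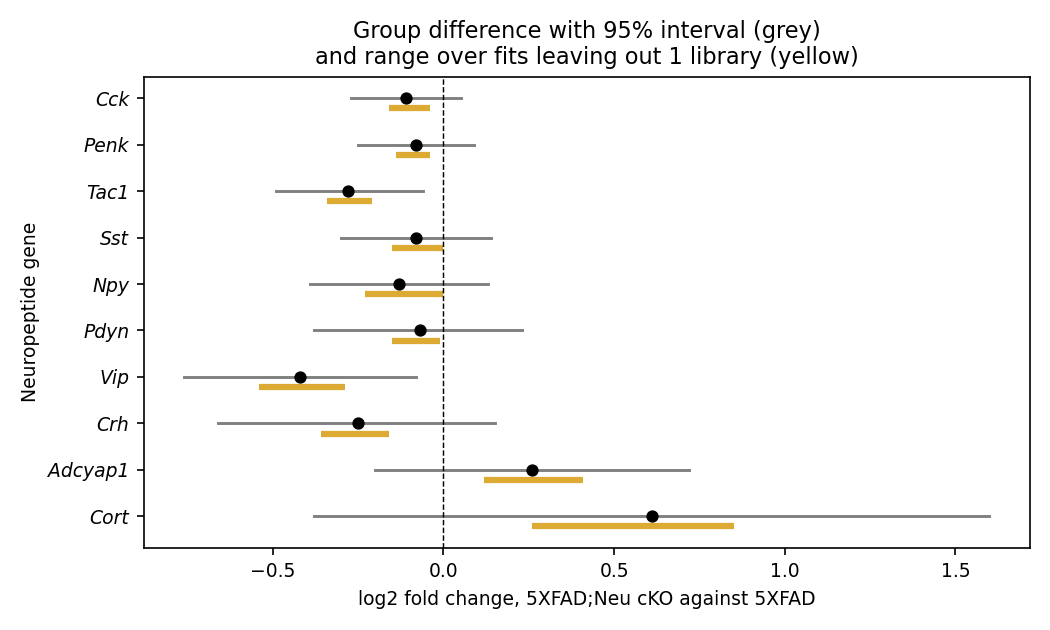
Log2 fold change of each neuropeptide gene, libraries labelled 5XFAD;Neu cKO against 5XFAD (black points), with its 95% interval in grey and the range over the fits that left out 1 library in yellow. The intervals of Vip and Tac1 lie below 0 before adjustment, and those of the other 8 genes include 0.

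Among the interneuron peptides, Vip (chromosome 10, 5589186 to 5599956, plus strand; gene positions here and below are those of GRCm39) had the lowest fold change. In the libraries labelled 5XFAD, replicates 1 to 5, Vip measured 22.5, 45.5, 32.1, 32.2 and 35.5 CPM, and in those labelled 5XFAD;Neu cKO it measured 26.2, 23.9, 18.0, 30.0 and 27.1 CPM. All 5 of the latter lay below the mean of the former, but 5XFAD replicate 1 sat among them. The means were 33.6 ± 8.27 and 25 ± 4.5 CPM (SD, n = 5), and the log2 fold change of -0.42 (standard error 0.17) did not pass adjustment by edgeR (adjusted p = 0.475; exact two-sided permutation test, p = 0.0794). Leaving out single libraries moved the fold change between -0.54 and -0.29 and the edgeR adjusted p between 0.314 and 0.855. The value nearest 0 came without 5XFAD replicate 2. In bulk tissue, fewer cells of a type and less RNA per cell cannot be told apart. Of 9 other markers of VIP and CGE-derived interneurons, 7 had a negative fold change and 0 were called by edgeR or DESeq2, and none had an unadjusted p under 0.05 in edgeR. Prox1, a transcription factor of these cells, had a log2 fold change of -0.28 and Reln, which encodes the matrix protein reelin, of -0.16 (edgeR adjusted p = 0.843 and 0.876).

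Sst, the peptide gene of dendrite-targeting interneurons (chromosome 16, 23707321 to 23711733, minus strand), measured 86, 110, 102, 117 and 99.9 CPM in the libraries labelled 5XFAD and 99.3, 73.6, 109, 116 and 88.5 CPM in those labelled 5XFAD;Neu cKO. The highest library of each group was replicate 4, at nearly the same value, and the lowest of all was 5XFAD;Neu cKO replicate 2. The log2 fold change was -0.08 (standard error 0.11), and its 95% interval corresponds to 0.812 to 1.1 times the 5XFAD level. Left without 5XFAD;Neu cKO replicate 2, the value was 0.0042. Of 7 other SST interneuron markers 5 had a negative and 2 a positive fold change, with a median of -0.09, and 0 were called by edgeR or DESeq2. An unadjusted p under 0.05 in edgeR was found for 1, against 7.95% of all genes. That gene was Nos1, which encodes neuronal nitric oxide synthase and marks a rare long-range type (log2 fold change 0.40; edgeR adjusted p = 0.451).

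Cort (chromosome 4, 149209491 to 149211266, minus strand) is made by cells that include some of the Sst cells. Its counted reads were 13, 19, 9, 8 and 18 in the libraries labelled 5XFAD and 15, 10, 32, 46 and 28 in those labelled 5XFAD;Neu cKO. The means of 2.75 ± 1.46 and 4.12 ± 2.24 CPM gave the widest interval of the 10 genes, 0.771 to 3.04 times the 5XFAD level, and a difference was not detectable at this depth (edgeR adjusted p = 0.867). Only 5XFAD;Neu cKO replicate 4, at 7.74 CPM, stood above both groups' other values, and Cort and Sst had a Pearson r of 0.31 over the 10 libraries.

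Npy (chromosome 6, 49799026 to 49806489, plus strand) encodes a peptide found in neurogliaform and other interneurons. It measured 99.0, 76.0, 84.2, 93.8 and 63.7 CPM in the libraries labelled 5XFAD and 76.8, 46.2, 81.3, 96.4 and 80.2 CPM in those labelled 5XFAD;Neu cKO. As for Sst, the lowest value was in 5XFAD;Neu cKO replicate 2, and 0.0031 was the log2 fold change without that library, against -0.13 with a standard error of 0.13 over all libraries. Its receptor gene Npy1r had a log2 fold change of 0.38 (17.4 ± 4.22 and 22.6 ± 5.32 CPM; edgeR adjusted p = 0.667). The receptor genes Npy2r and Npy5r had -0.37 and 0.77 (edgeR adjusted p = 0.879 and 0.778).

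Cck (chromosome 9, 121315695 to 121324863, minus strand) measured 747, 616, 596, 625 and 562 CPM in the libraries labelled 5XFAD and 617, 535, 555, 674 and 539 CPM in those labelled 5XFAD;Neu cKO. The group means, 629 ± 70.3 and 584 ± 60.1 CPM, differed by less than either SD. Together with Penk, Cck had the smallest standard error of the 10 genes, 0.08, around a log2 fold change of -0.11, and its 95% interval was 0.832 to 1.04 times the 5XFAD level. The annotation places 2 antisense noncoding genes over parts of Cck, and the strand setting of the counting is not given in the sources used here, so reads of the opposite strand could be included.

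Crh (chromosome 3, 19747565 to 19749655, minus strand), made in the cortex mainly by interneurons, measured 22.5, 17.8, 19.3, 17.9 and 17.7 CPM in the libraries labelled 5XFAD and 16.8, 11.4, 17.6, 20.4 and 13.6 CPM in those labelled 5XFAD;Neu cKO. In the second group 4 of 5 libraries lay below every library of the first, and replicate 4 did not. The log2 fold change was -0.25 (standard error 0.20; edgeR adjusted p = 0.865; exact two-sided permutation test, p = 0.127).

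Adcyap1 (chromosome 17, 93506397 to 93515189, plus strand), made largely by excitatory neurons, was among the more variable genes. It measured 16.5, 7.98, 17.8, 8.39 and 20.2 CPM in the libraries labelled 5XFAD and 16.6, 13.1, 16.8, 19.5 and 19.1 CPM in those labelled 5XFAD;Neu cKO. Within the first group replicates 2 and 4 lay apart, below the other 3 libraries, and the second group lay inside the range of the first. Along with Cort it was 1 of 2 genes above 0, at a log2 fold change of 0.26 (standard error 0.23; edgeR adjusted p = 0.877). Its receptor gene Adcyap1r1 measured 89.6 ± 12.7 and 83 ± 5.84 CPM, at a log2 fold change of -0.11. The antisense gene Gm32465, also not among the counted genes, overlaps 462 bases of Adcyap1.

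Tac1 (chromosome 6, 7554120 to 7565834, plus strand) had the lowest unadjusted p of the 10 genes. It measured 94.6, 116, 92.8, 118 and 130 CPM in the libraries labelled 5XFAD and 76.5, 104, 89.1, 92.5 and 93.2 CPM in those labelled 5XFAD;Neu cKO. All 5 libraries of the second group lay below the mean of the first, and the groups overlapped through replicates 1 and 3 of the first. The means were 110 ± 16.3 and 91 ± 9.8 CPM, and the log2 fold change was -0.28 (standard error 0.11; edgeR's unadjusted p = 0.0123 and adjusted p = 0.445; exact two-sided permutation test, p = 0.0556). Leaving out single libraries moved the fold change between -0.34 and -0.21 and the edgeR adjusted p between 0.302 and 0.655. Tacr1, the receptor gene for substance P, went the other way, at 3.7 ± 1.89 and 5.1 ± 2.83 CPM (log2 fold change 0.45; edgeR adjusted p = 0.903). Tac2, the related neurokinin B precursor, had a log2 fold change of -0.55 (edgeR adjusted p = 0.685). Its receptor gene Tacr3 was low, at 2.13, 2.35, 2.72, 4.1 and 6.06 CPM against 1.31, 1.47, 0.525, 1.85 and 1.58 CPM. Those groups did not overlap (exact permutation p = 0.00794, the smallest that 252 relabellings allow). That held for 1 of the 19 receptor genes tested, against 1.3% of all genes. At a mean of 2.41 CPM, the log2 fold change of -1.36 did not pass adjustment by edgeR (adjusted p = 0.529).

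The fold changes of both opioid precursor genes lay within 1 standard error of 0. Penk (chromosome 4, 4132722 to 4141856, minus strand) measured 306, 338, 296, 356 and 290 CPM in the libraries labelled 5XFAD and 286, 349, 294, 262 and 309 CPM in those labelled 5XFAD;Neu cKO, with the highest values spread over both groups. Its log2 fold change was -0.08 (standard error 0.08) and an interval of 0.842 to 1.06 times the 5XFAD level. For Pdyn (chromosome 2, 129528469 to 129541945, minus strand) the values were 39.5, 32.1, 26.4, 36.2 and 33.7 CPM, and 31.0, 37.0, 27.3, 30.8 and 33.5 CPM. Here the second group lay inside the range of the first, at a log2 fold change of -0.07 (standard error 0.15). The kappa receptor gene Oprk1, whose product binds dynorphin, had means of 24.6 ± 4.13 and 18.1 ± 4.21 CPM and a log2 fold change of -0.45 that did not pass adjustment by edgeR (adjusted p = 0.504). Its partners Oprm1 and Oprd1, for the mu and delta receptors, lay at 1.3 to 3.72 CPM on average. Penk is overlapped by antisense genes, over 3536 bases by A830012C17Rik, which had 0 to 3 counted reads per library, and over 9135 bases by Gm70307, which is not among the counted genes, so reads of the opposite strand cannot be set apart for Penk either.

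Correlations between the 10 genes were described over the 10 libraries, which share their normalization and, within a group, their genotype label, and no pair of the 45 passed Benjamini-Hochberg adjustment of its permutation p. The 4 pairs with an absolute Pearson r of at least 0.7 formed 2 sets, the first holding Npy, Cck and Crh. Npy and Crh had an r of 0.81 (permutation p = 0.008, adjusted 0.12; Spearman's rho 0.79, permutation p = 0.009, adjusted 0.2), and the r was 0.82 after subtracting group means. For Cck and Crh the r was 0.80 (permutation p = 0.0059, adjusted 0.12; rho 0.83, permutation p = 0.0048, adjusted 0.2), 0.77 after subtracting group means. Npy and Cck had an r of 0.70 (permutation p = 0.027, adjusted 0.3; rho 0.73, permutation p = 0.02, adjusted 0.28) and 0.68 after subtracting them. Leaving out the 2 libraries farthest from the median left these at 0.68, 0.70 and 0.72. The fourth pair was opposed: Adcyap1 and Penk had an r of -0.82 (permutation p = 0.003, adjusted 0.12; rho -0.72, permutation p = 0.025, adjusted 0.28), -0.80 within groups and -0.77 without the 2 farthest libraries.

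**Figure D3:**
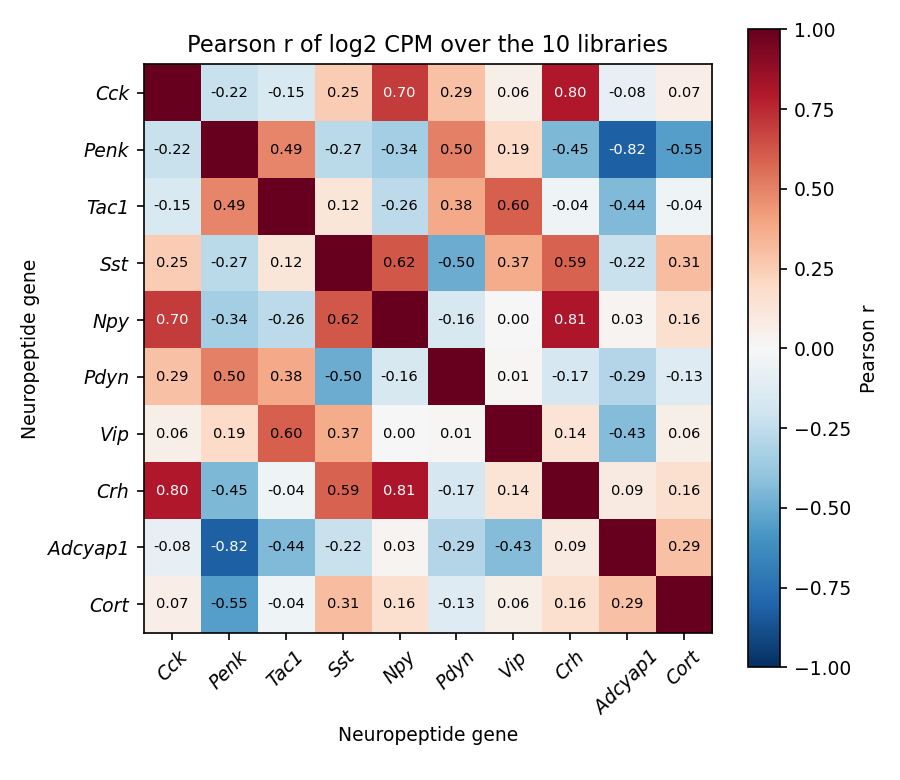
Pearson r of log2 CPM over the 10 libraries for all 45 pairs of neuropeptide genes, red for positive and blue for negative values. Npy, Cck and Crh form a positive block at 0.70 to 0.81, and Adcyap1 and Penk are the most opposed pair at -0.82.

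Penk also varied with the markers of striatal projection neurons, a list that does not hold Penk. Several of these markers, such as Drd1 and Ppp1r1b, are also expressed in cortical neurons. The mean log2 CPM of the 10 markers ran from 5.59 to 6.21 in the libraries labelled 5XFAD and from 5.55 to 6.16 in those labelled 5XFAD;Neu cKO. The 3 libraries with the highest marker level, 5XFAD replicates 4 and 2 and 5XFAD;Neu cKO replicate 2, had the 3 highest Penk values and the 3 lowest Adcyap1 values. Over the 10 libraries Penk and the marker mean had an r of 0.89 (permutation p = 0.00074, adjusted 0.022 over 30 relations of the 10 genes with 3 lists; rho 0.79, permutation p = 0.0086, adjusted 0.13), 0.94 within groups and 0.73 without the 2 farthest libraries. Adcyap1 and the marker mean had an r of -0.72 (permutation p = 0.02, adjusted 0.18; rho -0.64, permutation p = 0.056, adjusted 0.42), -0.78 within groups and -0.61 without the 2 farthest. For Crh the r was -0.69 (permutation p = 0.024, adjusted 0.18; rho -0.60, permutation p = 0.074, adjusted 0.43), -0.81 within groups and -0.59 without the 2 farthest. Tac1 and Pdyn, which striatal neurons also make, had an r of 0.42 and 0.33 with the same markers.

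**Figure D4:**
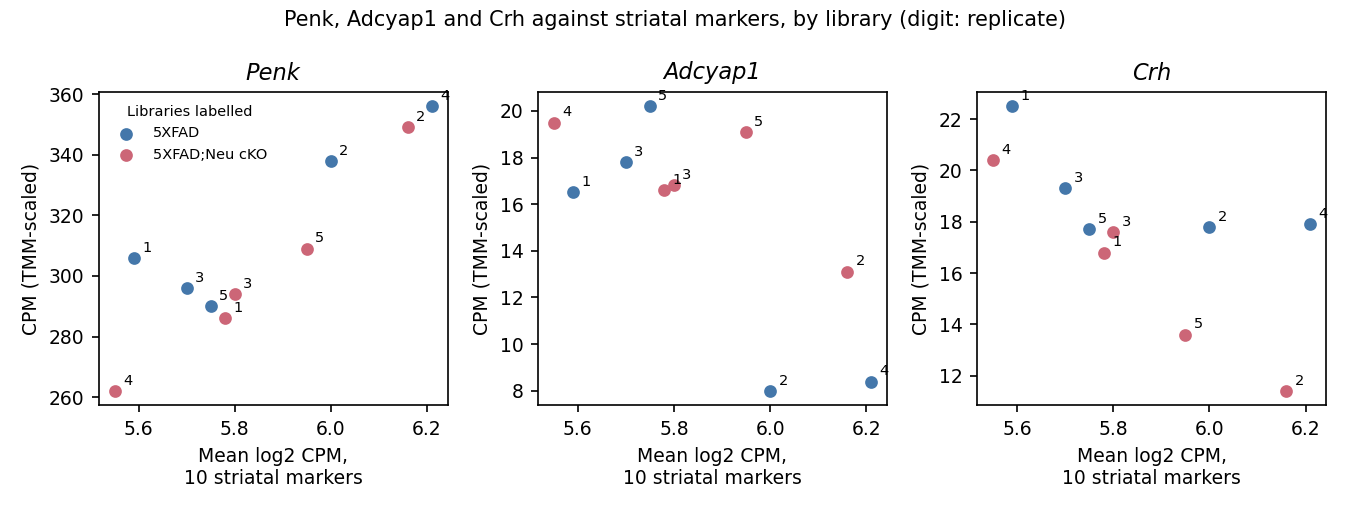
CPM of Penk, Adcyap1 and Crh against the mean log2 CPM of 10 striatal projection neuron markers, 1 point per library, blue for 5XFAD and red for 5XFAD;Neu cKO, with replicate numbers. Penk lies higher at higher marker levels (r = 0.89) and Adcyap1 (r = -0.72) and Crh (r = -0.69) lie lower, with both groups spread over the axis.

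Of the 10 striatal markers themselves, 0 were called by edgeR or DESeq2, with 0 at an unadjusted p under 0.05 in edgeR and a median log2 fold change of -0.03. With the marker mean as a covariate, an alternative chosen after seeing the data, 0 of the 10 peptide genes were called and the log2 fold change of Penk stayed at -0.08 while that of Adcyap1 was 0.32 (edgeR adjusted p = 0.834). How much striatal tissue each dissection held was not measured, and its part in the Penk values was not tested.

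Cck was the only other gene related to a list after adjustment of Pearson's r. Its r with the mean of 11 inhibitory neuron markers was -0.83 (permutation p = 0.0031, adjusted 0.047; rho -0.81, permutation p = 0.0072, adjusted 0.13), -0.81 within groups and -0.69 without the 2 farthest libraries. The marker mean was lowest, 4.27, in 5XFAD replicate 1, which had the highest Cck value. This mean of log2 CPM weighs genes of low and high level alike. In that library Lhx6 had its lowest value, 1.16 CPM, while Gad1, at 150 CPM, was lowest in 5XFAD replicate 2, at 118 CPM. The part of low counts in the relation was not tested. Of the inhibitory markers, 8 of 11 had a positive fold change and 0 were called by edgeR or DESeq2. Gad1, a GABA-synthesizing enzyme, measured 160 ± 30.8 and 187 ± 20.8 CPM (log2 fold change 0.22; edgeR adjusted p = 0.553), and Lhx6, a transcription factor of the lineage of Sst and Pvalb cells, 3.17 ± 1.49 and 6.5 ± 1.45 CPM (log2 fold change 1.04; edgeR adjusted p = 0.445), a gene named here after its values were seen. Of 5 markers of parvalbumin interneurons, 2 had a positive and 3 a negative fold change, with a median of -0.04, and the calcium buffer gene Pvalb itself had a log2 fold change of 0.15 and Hapln1 of 0.19 (edgeR adjusted p = 0.909 and 0.946). Syt2, a synaptotagmin of their terminals, was the 1 called, lower at a log2 fold change of -0.61 (edgeR adjusted p = 0.0388), and the call was lost in 5 of the 10 fits leaving out 1 library, those without 5XFAD replicates 2 or 5 or 5XFAD;Neu cKO replicates 2, 3 or 5 (edgeR adjusted p up to 0.246).

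By likeness over the 10 libraries among 11065 genes with a mean of at least 5 CPM, the genes closest to each peptide gene were Fbxo2 for Sst (r = 0.94), Trap1 for Cort (0.90), Pde4dip for Vip (0.92), Dapk1 for Adcyap1 (0.95), Reep3 for Npy (0.94), Ntm for Cck (0.95), Map3k20 for Tac1 (0.94), Lrfn4 for Penk (0.94), Cacna1h for Pdyn (0.89) and Dkk3 for Crh (0.94). Each peptide gene had between 68 genes (Pdyn) and 225 genes (Vip) with an r of at least 0.7, so high values are common with 10 libraries and these names are a description only.

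The rest of the peptide system was examined as 4 lists holding 51 genes, of which 49 were tested. None was called by edgeR or DESeq2, and 8 of the 49 had an unadjusted p under 0.05 in edgeR, against 7.95% of all genes. Of the peptide receptors 19 of 21 were tested, and 14 had a negative and 5 a positive fold change with a median of -0.15. The most abundant was the PACAP receptor gene Adcyap1r1, followed by the cholecystokinin receptor gene Cckbr at 38 ± 2.36 and 34.3 ± 6.52 CPM and the somatostatin receptor gene Sstr1 at 26.4 ± 4.93 and 23.8 ± 5.2 CPM. The vasoactive intestinal peptide receptor gene Vipr1 measured 12 ± 2.47 and 14.6 ± 5.49 CPM, and Crhr1, the receptor gene for corticotropin-releasing hormone, 5.75 ± 2.49 and 5.36 ± 1.32 CPM. Of 8 other cortical peptide genes 7 had a negative fold change, with a median of -0.21. Among them galanin (Gal) had the lowest fold change, -2.54, at 2.97 ± 1.89 and 0.519 ± 0.711 CPM (edgeR adjusted p = 0.351), with counts of 0 in some libraries, a gene named here after its values were seen.

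Precursor processing genes split evenly, with 5 positive and 5 negative fold changes and a median of 0.00. Cpe, the carboxypeptidase that trims cut precursors, was abundant at 1168 ± 60.2 and 1079 ± 54.4 CPM (log2 fold change -0.11), and the convertase gene Pcsk2 measured 614 ± 58.1 and 643 ± 74.3 CPM (0.07). Pcsk1, the other main convertase gene, had a log2 fold change of 0.34 and Pcsk1n, the gene of its inhibitor, of -0.21 (edgeR adjusted p = 0.764 and 0.471). Scg5, whose product 7B2 is the chaperone of the Pcsk2 enzyme, lay in 2 separate ranges. It measured 203, 594, 630, 523 and 230 CPM in the libraries labelled 5XFAD and 547, 184, 192, 220 and 185 CPM in those labelled 5XFAD;Neu cKO. The upper range, 523 to 630 CPM, held 3 libraries of the first group and 1 of the second. The log2 fold change of -0.72 was not called by edgeR (adjusted p = 0.13; exact two-sided permutation test, p = 0.0952), while it was called without 5XFAD replicate 1, without 5XFAD replicate 5 or without 5XFAD;Neu cKO replicate 1 (edgeR adjusted p = 0.00847, 0.0207 and 9.65e-06).

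Of 12 dense-core vesicle genes 9 had a negative fold change, with a median of -0.10 and 0 called by edgeR or DESeq2. Chgb, a granin of the vesicle core, measured 514, 562, 504, 483 and 495 CPM in the libraries labelled 5XFAD and 481, 424, 453, 465 and 382 CPM in those labelled 5XFAD;Neu cKO. These groups did not overlap (exact permutation p = 0.00794), the highest value of the second lying just below the lowest of the first. That held for 1 of the 12 genes, against 1.3% of all genes. The log2 fold change of -0.21 did not pass adjustment by edgeR (adjusted p = 0.406). Scg3, another granin, had a log2 fold change of -0.24 (edgeR adjusted p = 0.417). The release gene Cadps and the vesicle synaptotagmin gene Syt4 had values of 0.13 and 0.07.

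Several of the peptide genes respond to neuronal activity, so 12 activity-regulated genes were placed beside them. Of these 11 had a positive fold change, with a median of 0.31, and 0 were called by edgeR or DESeq2. An unadjusted p under 0.05 in edgeR was found for 3, against 7.95% of all genes. The lowest library was 5XFAD replicate 2 for most, not all, of the 12 genes, with Fos at 6.57, Egr1 at 91.3 and Nr4a1 at 8.92 CPM. Over the fits leaving out 1 library, the log2 fold changes of these 3 ran from 0.49 to 0.81, 0.27 to 0.44 and 0.15 to 0.53. Fos had the lowest adjusted p together with Egr1 (log2 fold changes 0.69 and 0.35; edgeR adjusted p = 0.254), at 16.4 ± 6.84 and 26.6 ± 4.39 CPM for Fos, and Nr4a1 had 0.39 (edgeR adjusted p = 0.628). Over the alternative edgeR fits the adjusted p of Fos ran from 0.0293 to 0.615, so whether Fos was called depended on the processing. DESeq2 gave Fos no adjusted p. The peptide genes with a median of -0.09 did not share that direction, apart from Cort and Adcyap1. A difference between the lists was not tested.

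The remaining marker lists were placed beside the peptide genes as a record of tissue content. Of 12 excitatory neuron markers 6 had a positive and 6 a negative fold change, with Neurod2 at 0.32 and Fezf2 at -0.21 (edgeR adjusted p = 0.274 and 0.889). Dlx1 of the inhibitory list and Elfn1 of the SST list each had a log2 fold change of -0.22 (edgeR adjusted p = 0.941 and 0.876), and in the striatal list Rasd2 had -0.23 and Gpr6 -0.24 (0.697 and 0.924). Markers of olfactory bulb and Meis2 neurons included Tshz1 at 0.41 and Meis2 at 0.21 (edgeR adjusted p = 0.209 and 0.617). Among glial genes, Aldh1l1 of astrocytes had -0.45, and Mobp and Mog of oligodendrocytes -0.43 and -0.46 (edgeR adjusted p = 0.558, 0.0662 and 0.528). The hippocampal list, with 5 of 6 genes tested, summed to 7.04 to 10.6 CPM in one group and 4.97 to 16.5 CPM in the other, and the choroid plexus gene Ttr had a log2 fold change of 0.14 (edgeR adjusted p = 0.974).

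**Figure D5:**
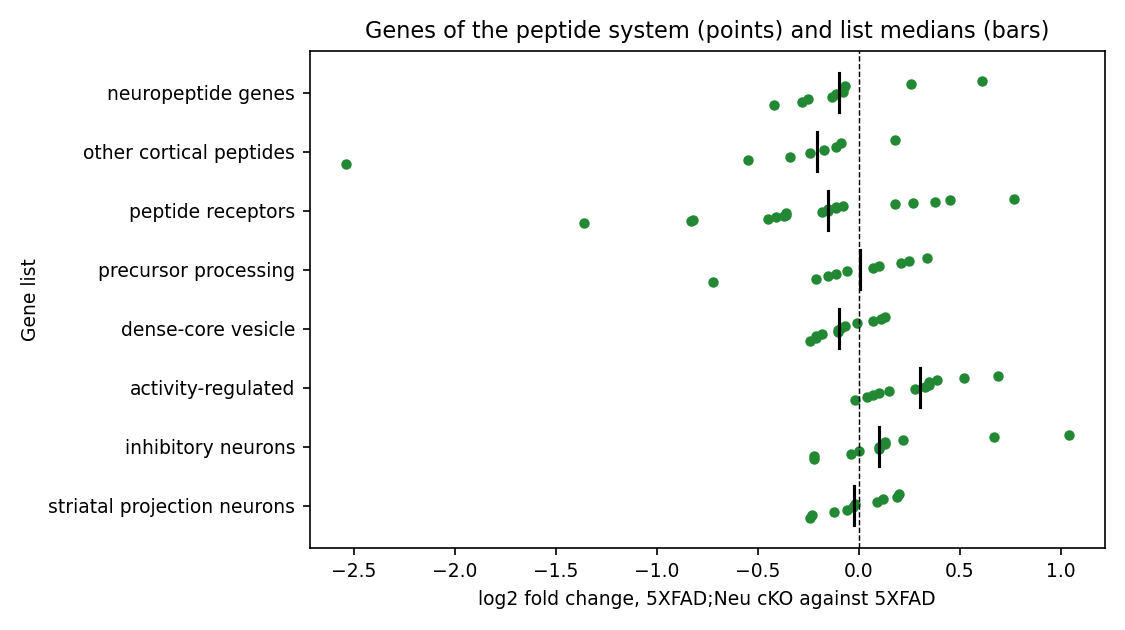
Log2 fold change of every tested gene (points), libraries labelled 5XFAD;Neu cKO against 5XFAD, for the 10 neuropeptide genes, 4 lists of the peptide system and 3 lists of activity-regulated, inhibitory and striatal genes, with list medians as bars. The median is -0.09 for the neuropeptide genes, -0.15 for the receptors and 0.31 for the activity-regulated genes, and no point shown was called by edgeR.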

How the data were processed

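The authors made QuantSeq 3′ libraries, trimmed the reads with bbduk, mapped them to GRCm39 with STAR 2.7.3a, using Ensembl annotation, and obtained gene counts with htseq-count (HTSeq 0.9.1 in the submitters' processing notes, while the paper names another version). The strand setting is not given in the sources used here. The deposited values are raw counts per gene and library. Rows that named no gene (31.3% to 39.9% of kept reads on no gene, 0.428% to 0.467% ambiguous) entered neither library sizes nor tests.

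Genes with a total count above 10 were kept (19268) and compared in R 4.3.3 with edgeR 4.0.16 (TMM, quasi-likelihood test, condition only, Benjamini-Hochberg over all genes, threshold 0.05). The common biological coefficient of variation was 0.281. Intervals for fold changes are 95%. DESeq2 1.42.0 was an alternative, and genes it gave no adjusted p count as not called. Single genes were also compared by an exact permutation test of mean log2 CPM (prior count 2). No pair of libraries in a group differed as little as sampling noise gives (chi-square per degree of freedom at least 5.7). Same-numbered replicates did not deviate together (r from -0.05 to 0.02), so they were not paired.

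The 10 genes and the gene lists were chosen with earlier results of these data known. Named are these 10, Mylip, some but not all receptors of the peptides, and the gene most like each peptide gene of the 3 highest. From each list the genes called and the 2 with the largest absolute log2 fold change at a mean of at least 5 CPM are also named. Other genes (Lhx6, Gal, Egr1, Pvalb, Drd1, Ppp1r1b, Hcrt, Pmch and single processing and vesicle genes) were named after their values were seen. Likeness to a peptide gene was Pearson's r of log2 CPM. The result for 1 gene is not reported here.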

Additional observations from a re-analysis of the deposited data

Results flagged for a closer look

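None of the 10 peptide genes had a library far from the rest of its group. Over 120 groups of 5 libraries, 8 held a highest or lowest value separated from the others by more than Dixon's 95% limit, where chance gives about 1 in 20. In the peptide system these were Scg5 in 5XFAD;Neu cKO replicate 1, at 547 CPM, and Grp, the precursor of gastrin-releasing peptide, in 5XFAD replicate 2, at 15 CPM. That library was also the highest for the microglial receptor gene Csf1r at 78.4 CPM, the myelin gene Mobp at 397 CPM, and the hypothalamic peptide genes Hcrt at 23.5 CPM and Pmch at 33.3 CPM. Without it, 0 of the 10 peptide genes were called by edgeR. Pmch stood apart in 5XFAD;Neu cKO replicate 1 as well, at 9.16 CPM, and Ttr, a choroid plexus gene, in 5XFAD;Neu cKO replicate 5, at 133 CPM.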

How the results depend on the processing

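Under 18 alternatives, 178 of the 180 fold changes of the 10 peptide genes kept their direction and their side of the threshold. The 2 that turned were those of Sst, from -0.15 to 0.0042, and Npy, from -0.23 to 0.0031, over the fits leaving out 1 library, both above 0 only without 5XFAD;Neu cKO replicate 2. No peptide gene was called under any alternative, and the lowest adjusted p was 0.264 (Tac1, DESeq2). Their median log2 fold change stayed between -0.16 and -0.06. Of the related peptide-system genes, 1 (Scg5) was called with no filter on low counts and 1 with the replicate block, 0 or 1 over the fits leaving out 1 library, and 0 otherwise. Its edgeR adjusted p was then 4.71e-14 and 1.01e-14, against 0.577 by DESeq2 and 0.827 in the robust edgeR fit, and the cause was not tested. Over all genes, 42 were called in edgeR, 73 by DESeq2, 103 with no filter, 112 with the replicate block, and 26 to 72 over the fits leaving out 1 library, lowest without 5XFAD replicate 2 and highest without 5XFAD;Neu cKO replicate 1. The labels link same-numbered replicates by number only, and no such pair was the best match in both directions. The least abundant gene, Cort, had 8 to 46 reads per library, which limits what its values can show.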

Other observations

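Several hypothalamic peptide genes, which were not among the 10, varied widely between these cortex libraries. Hcrt ran from 0 to 23.5 CPM and Pmch from 0 to 33.3 CPM, while Trh and Pomc averaged only 1.52 and 1.2 CPM. A difference in spread from the cortical peptide genes was not tested. Oxt, the oxytocin precursor, measured 21.6 ± 12.9 CPM in the libraries labelled 5XFAD and 4.11 ± 4.85 CPM in those labelled 5XFAD;Neu cKO (log2 fold change -2.40; quasi-likelihood test of edgeR, Benjamini-Hochberg adjusted p = 0.000932, ranging from 2.58e-15 to 0.521 over the alternatives, the highest in the robust edgeR fit), and Avp, the vasopressin precursor, 12.5 ± 4.13 and 4.73 ± 3.51 CPM (log2 fold change -1.41; edgeR adjusted p = 0.07, ranging from 0.000728 to 0.304). DESeq2 gave no adjusted p for either gene. The 6 hypothalamic genes tested summed to 18.1 to 108 CPM in one group and 4.02 to 35.9 CPM in the other, and all 6 were low beside Cck or Penk. None of the 10 peptide genes had a relation to their mean level that passed adjustment. The part of other brain regions in these values was not tested.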
